A study of Homo sapiens with 14 samples.

Results

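The small-subunit processome is described here through 42 genes that encode its proteins, among them NOP14 and its partners NOC4L, EMG1 and UTP14A. The rule selects the members by gene name alone, from a list drawn up with earlier results of these data known, and all 42 were found once each among the 62699 genes of the count table. RNA sequencing of poly(A) RNA measured transcript levels in 14 libraries of 4 human lines. These were the triple-negative breast cancer lines BT-549 and MDA-MB-231, the lung adenocarcinoma line NCI-H1395 and the gastric adenocarcinoma line AGS. In each line, cells given an siRNA against ADAR, the gene of the RNA-editing enzyme ADAR1 (2 libraries, numbered 1 and 2), were compared with cells given a control siRNA (1 library). MDA-MB-231 also gave 1 library with NOP14 overexpression and 1 control library named PCDH. Libraries 1 and 2 of a line share its single control. The labels do not say that they came from separate cultures, so p-values measure only the spread between these libraries.

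The small-subunit processome assembles in the nucleolus on the precursor of ribosomal RNA while that precursor is still being transcribed. It folds and cuts the precursor into the 18S rRNA of the small ribosomal subunit, and modifies its bases. Its parts join in order: UTP-A binds the leading spacer of the precursor, UTP-B and the U3 snoRNP follow, the U3 RNA pairs with the precursor with help from the MPP10 complex, and NOP14, NOC4L and EMG1 then join around the folding 18S domains. UTP14A, together with the helicase DHX37, acts when the particle is taken apart. Fast-growing cells, cancer cells included, depend on high ribosome output, and genes of this machinery are textbook targets of MYC, which binds the E-box sequence CACGTG.

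Library totals lay between 13338338 and 27828376 counts. ADAR, the check of the labels, kept 10.6% to 33.8% of its control level in the 8 ADAR siRNA libraries. Of the marker genes, ESR1 and PGR lay below 1 CPM (TMM-scaled counts relative to the library total) in all 4 lines. The remaining breast receptor marker, ERBB2, was at 58.2 to 99.5 CPM in MDA-MB-231 and 99.7 to 132 CPM in BT-549. It was at 86.5 to 176 CPM in AGS and 62.6 to 72.9 CPM in NCI-H1395. The 6 epithelial markers summed to 4667 to 6653 CPM in AGS and 1326 to 2289 CPM in MDA-MB-231. They summed to 638 to 755 CPM in NCI-H1395 and 76.0 to 98.7 CPM in BT-549. The 6 mesenchymal markers summed to 2727 to 4949 CPM in BT-549 and 1586 to 2691 CPM in NCI-H1395. Their sums were 1485 to 2502 CPM in MDA-MB-231 and 6.08 to 13.5 CPM in AGS. In NCI-H1395 the keratins KRT18 and KRT8 made up most of the epithelial sum, CLDN4 was at 4.29 to 9.13 CPM, and EPCAM, CDH1 and KRT19 lay below 1 CPM. Each of the 4 lung markers, NKX2-1, SFTPB, NAPSA and SFTA3, also lay below 1 CPM in all 3 NCI-H1395 libraries. Markers of blood, vessel and liver cells summed to 25.7 CPM at most in any library.

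The promoters of the members share sequence features that the rule did not use. A RefSeq promoter (GRCh38.p14, 250 bases before to 50 after the start) was found for 36 of the 42 members. The E-box CACGTG, which reads the same on both strands, was present in 17 of these 36 promoters (47.2%), against 7.43% of all 27305 promoters and 9.44% of the 13248 promoters of genes tested for ADAR siRNA. The ETS-like sequence CCGGAAG, searched on both strands and without overlap with the E-box, was present in 15 (41.7%), against 10.7% and 17.0%. Both were present in 8 members and neither in 12, NOC4L among the latter. The windows below are those of the NOP14 group and of 4 members picked for having both an E-box and low values after ADAR siRNA. WDR36, WDR3, NOP56 and NOL11, all lower than FBL over the 4 lines, had no E-box. Each holds 30 bases, 5′ to 3′ on the gene's strand, with the E-box or, for EMG1, the ETS-like sequence or its reverse complement in capitals.
NOP14, chr4:2963374-2963403, minus strand: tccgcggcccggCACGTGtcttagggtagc
UTP14A, chrX:129905914-129905943, plus strand: accttgggcCACGTGgaaaccaggggccag
EMG1, chr12:6970836-6970865, plus strand: caaaatggcagCCGGAAGgaaatttgtgat
EMG1, chr12:6970894-6970923, plus strand: cgttagcgcaaCTTCCGGtattgttgcaag
NAT10, chr11:34105602-34105631, plus strand: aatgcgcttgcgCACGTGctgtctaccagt
UTP18, chr17:51260538-51260567, plus strand: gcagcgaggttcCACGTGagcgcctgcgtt
IMP4, chr2:130342900-130342929, plus strand: ttctcccggaccCACGTGgaagcggcactc
FBL, chr19:39846356-39846385, minus strand: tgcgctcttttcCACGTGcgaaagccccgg
The E-box of NOP14 began at base 16 of the annotated transcript, and that of UTP14A began 241 bases before the annotated start. UTP18 and IMP4 each held another E-box, not shown, which began 89 and 203 bases before the annotated start. A match describes letters in a window and not binding by a factor, which was not measured. With ADAR siRNA over the 4 lines, the median log2 fold change was -0.19 in the 17 members with an E-box (16 lower) and -0.14 in the 19 without one (15 lower).

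NOP14, a nucleolar scaffold protein of the particle, had the widest range of baseline levels of any member except PWP2. Its gene (ENSG00000087269.16; hg38, chromosome 4, 2937933 to 2963406, minus strand) was at 335 CPM in the control siRNA library of MDA-MB-231, 123 CPM in NCI-H1395, 66.6 CPM in AGS and 29.3 CPM in BT-549. The highest of these was 11.4 times the lowest, and the order held in the ADAR siRNA libraries: 266 and 308 CPM in MDA-MB-231, 142 and 78.5 CPM in those of NCI-H1395, 64.7 and 53.3 in AGS, and 31.0 and 19.7 in BT-549. The 4 lines did not overlap over their siRNA libraries. The PCDH library of MDA-MB-231, at 129 CPM, lay within the range of NCI-H1395. By edgeR's quasi-likelihood F test between the 4 control libraries, with the spread borrowed from the ADAR siRNA pairs, the Benjamini-Hochberg adjusted p was 3.2e-06. The 2 triple-negative breast cancer lines thus stood at opposite ends. NOP14 overlaps an antisense gene, NOP14-AS1, over 20.7% of its exon bases. That gene had 580 counts against 6273 of NOP14 in the MDA-MB-231 control and 1105 against 1139 in that of AGS, and without a known strand setting reads of the pair cannot be told apart there.

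Levels of different genes were compared in TPM, a unit that divides counts by gene length before scaling to the library. NOP14 ranked first of the 42 members in the MDA-MB-231 control, at 274 TPM. It ranked 7 in NCI-H1395 (148 TPM), 12 in AGS (73.6 TPM) and 35 in BT-549 (28.9 TPM). Against the median of the other 38 members, excluding its 3 partners, NOP14 was 5.70 times as high in MDA-MB-231, 2.79 times in NCI-H1395, 1.66 times in AGS and 0.492 times in BT-549. That median itself varied little, from 44.2 TPM in AGS to 58.7 TPM in BT-549. These values are of the control siRNA libraries. In the PCDH library of MDA-MB-231 NOP14 ranked 7, at 128 TPM and 2.57 times that median, with FBL first.

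**Figure D1:**
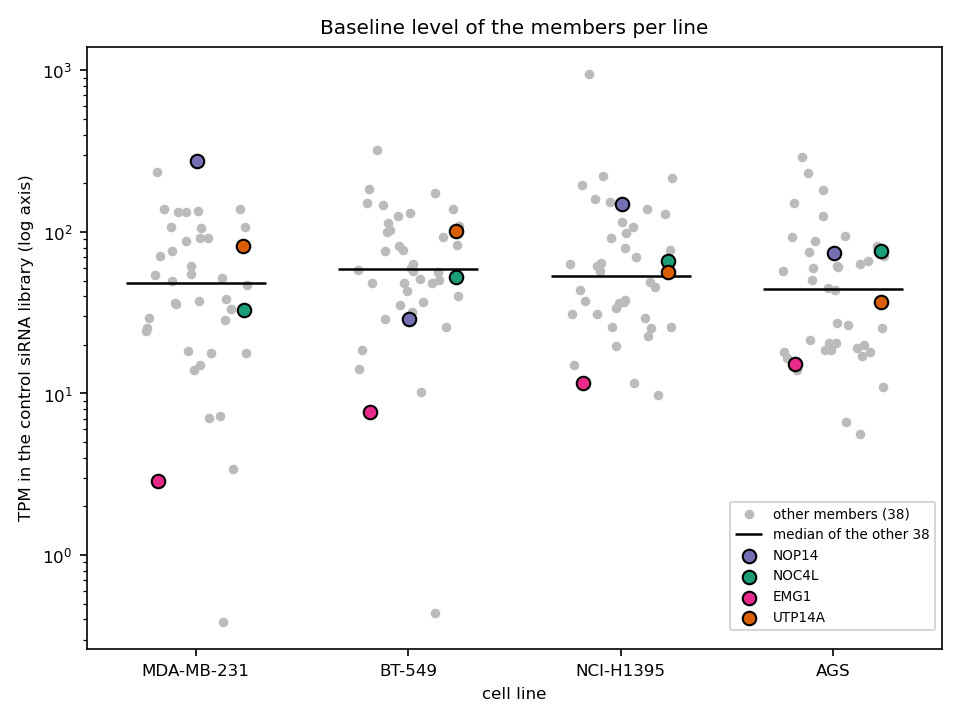
Level of the 42 members (TPM, log axis) in the control siRNA library of each line, with NOP14 and its partners coloured, the other 38 members in grey and their median as a line. NOP14 stands above all others in MDA-MB-231 and below the median in BT-549, while EMG1 lies near the bottom in each line.

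The partners did not follow the order of NOP14. NOC4L, which binds NOP14 directly, was at 22.8 CPM in the MDA-MB-231 control, 30.5 in BT-549, 39.0 in AGS and 30.9 in NCI-H1395, a 1.71-fold range that did not pass the test (edgeR adjusted p = 0.414). EMG1, the methyltransferase that modifies a base of the 18S rRNA, was at 5.51, 12.2, 21.5 and 14.99 CPM in the same order of lines (3.91-fold, edgeR adjusted p = 0.012). UTP14A was at 115, 117, 38.2 and 53.3 CPM (3.07-fold, edgeR adjusted p = 0.0017). In these control siRNA libraries UTP14A was thus high in both breast lines, including BT-549 where NOP14 was lowest. In the PCDH library of MDA-MB-231 it was at 62.1 CPM, nearer to NCI-H1395. The ratio of NOP14 to NOC4L in TPM was 8.36 in the control siRNA library of MDA-MB-231 (3.67 in PCDH), 2.25 in NCI-H1395, 0.969 in AGS and 0.546 in BT-549. EMG1 values carry an added doubt, as 55.5% of its exon bases overlap LPCAT3 on the opposite strand.

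Over all members, 32 of 42 differed between the control libraries (edgeR, adjusted p under 0.05), against a background of 50.5% of the 23959 genes tested. Without PWP2, the ratio of the highest to the lowest line had a median of 2.63. In these control siRNA libraries, BT-549 was the highest line for 18 members and MDA-MB-231 for 15, while AGS was the lowest for 18 and MDA-MB-231 for 13. AATF, which joins NGDN in an early subcomplex, was at 256 CPM in MDA-MB-231, 166 in BT-549, 63.2 in AGS and 55.6 in NCI-H1395 (edgeR adjusted p = 8.1e-06). BMS1, the GTPase of the particle, was at 287, 185, 49.8 and 140 CPM in the same order (edgeR adjusted p = 9.6e-06), with pseudogenes of BMS1 counted at 6.1% of its reads. FBL, the 2′-O-methyltransferase of box C/D snoRNPs, ran the other way, at 102 CPM in MDA-MB-231, 197 in BT-549, 159 in AGS and 469 in NCI-H1395 (edgeR adjusted p = 3.0e-05). These values are of the control siRNA libraries, and the PCDH library of MDA-MB-231 gave other places. There AATF was at 119 CPM and BMS1 at 167 CPM, both below BT-549. FBL was at 191 CPM there, above AGS and near BT-549. FBL was the member with the highest TPM in the control siRNA libraries of BT-549 (323), NCI-H1395 (944) and AGS (293).

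PWP2, a WD-repeat protein of UTP-B, needs to be read with its copy. Its gene (ENSG00000241945.8; hg38, chromosome 21, 44107373 to 44131181, plus strand) has a near-identical copy on the same chromosome (ENSG00000275464.6; 5130871 to 5154658, minus strand). The coding sequences, each 2760 bases long in GENCODE 29, differ by 4 substitutions (G73A, T984C, A1572G and T1951C, PWP2 base first, positions from 1 at the start codon) and are 99.855% identical. The first and last of these are shown in windows of 30 bases, 5′ to 3′, with the differing base in capitals.
PWP2, coding bases 58 to 87: ctaaattttacctgcGatggaaattcagtt
copy, coding bases 58 to 87: ctaaattttacctgcAatggaaattcagtt
PWP2, coding bases 1936 to 1965: tcttgcaacctgtctTtggacgccatggag
copy, coding bases 1936 to 1965: tcttgcaacctgtctCtggacgccatggag
Of the reads counted on either gene, 97.3% to 98.4% were assigned to PWP2 in the 3 NCI-H1395 libraries and 43.3% to 47.6% in AGS. In BT-549 the share was 0.305% to 4.12%, and over the 5 MDA-MB-231 libraries 0.725% to 4.46%. PWP2 alone was at 36.2 CPM in the NCI-H1395 control and at 0.858 CPM in that of BT-549, a 42.1-fold range (edgeR adjusted p = 5.2e-08). Summed with the copy, a choice made after seeing the data, the difference between lines did not pass the test (edgeR adjusted p = 0.205).

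**Figure D2:**
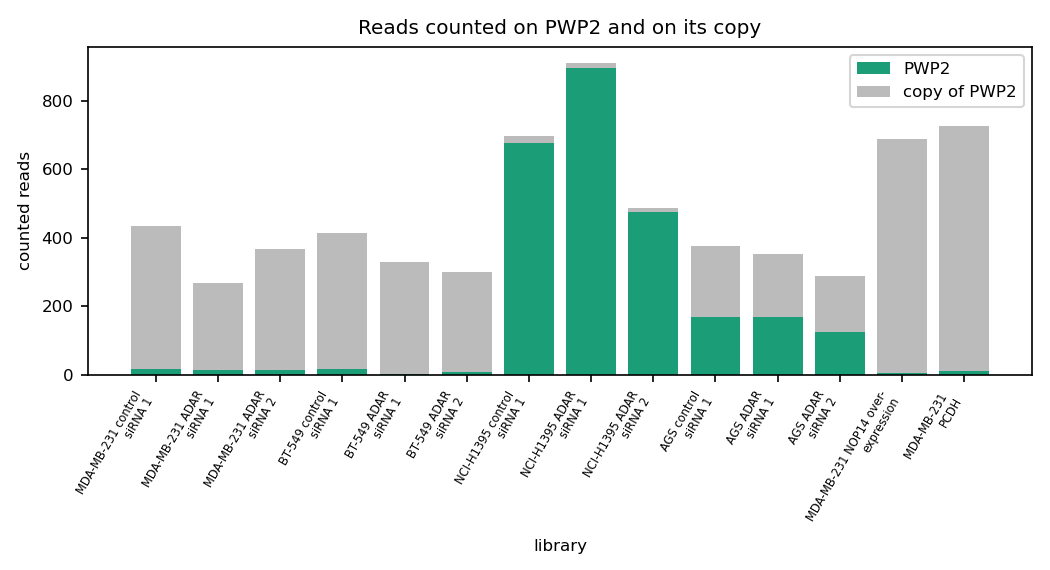
Reads counted on PWP2 (green) and on its copy (grey) in each of the 14 libraries. Nearly all reads lie on the copy in MDA-MB-231 and BT-549, nearly all on PWP2 in NCI-H1395, and both genes share them in AGS.

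With NOP14 overexpression NOP14 was 6.59 times as high as with PCDH, and the other measured members stayed near their control levels. NOP14 had 19243 counts in the overexpression library and 3327 in PCDH, or 852 and 129 CPM, a ratio of 6.59 with a 95% counting interval of 6.36 to 6.85. There is 1 library an arm, so no test was made, and intervals cover counting error only. The gene count does not separate transcripts of the introduced NOP14 from those of the cell's own gene. NOP14-AS1 had 703 and 764 counts in the 2 libraries. In TPM, NOP14 stood at 17.0 times the median of the other 38 members with overexpression and at 2.57 times in PCDH.

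The partners of NOP14 had ratios close to 1. NOC4L was at 21.8 CPM with overexpression and 19.95 with PCDH, a ratio of 1.09 (0.963 to 1.24). EMG1 was at 7.39 and 7.67 CPM, a ratio of 0.962 (0.778 to 1.19). UTP14A was at 65.8 and 62.1 CPM, a ratio of 1.06 (0.986 to 1.14). All 3 counting intervals include 1.

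Of 41 measured members, 1 (NOP14) passed a ratio of 1.5 either way, against 5.79% of 16160 genes. Among the 6411 better expressed genes (log2 CPM averaging 5 or more), 1 passed it, NOP14 itself. Levels near those of PCDH were thus shared by the better expressed genes. The other 40 lay between 0.953 (UTP23) and 1.14 (TBL3). UTP23 shares exon bases with RAD21 and EIF3H on the opposite strand, so without a known strand setting its reads cannot be told from theirs there. The counting interval left out 1 for 7 of the 41 members, against 16.1% of all genes: NOP14, TBL3, NOP56, IMP4, DCAF13, DHX37 and NGDN. Among the 38 members outside the NOP14 group, 37 were measured, 28 were higher and 9 (24.3%) lower, with a median log2 ratio of 0.031. Of all genes 50.2% were lower (median -0.00070), and of the better expressed genes 46.8% (median 0.0062). With 1 library an arm, this lean was not tested. In the subcomplexes the member farthest from its control was UTP4 in UTP-A (ratio 0.966, 0.914 to 1.02), TBL3 in UTP-B (1.14, 1.06 to 1.24), RRP9 in the U3 snoRNP (1.08, 0.988 to 1.18) and IMP4 in the MPP10 complex (1.09, 1.01 to 1.17). For RCL1, a cyclase-like protein that binds BMS1, it was 1.12 (0.926 to 1.36), and for NGDN among the single factors 1.11 (1.003 to 1.23). PWP2 had only 15 counts over both libraries and was not measured. With its copy it had 690 and 728 counts. Over genes of at least 100 counts, the median chi-square between the 2 libraries was 1.03, where counting error alone gives 0.455, so the libraries differed somewhat more than counting error.

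**Figure D3:**
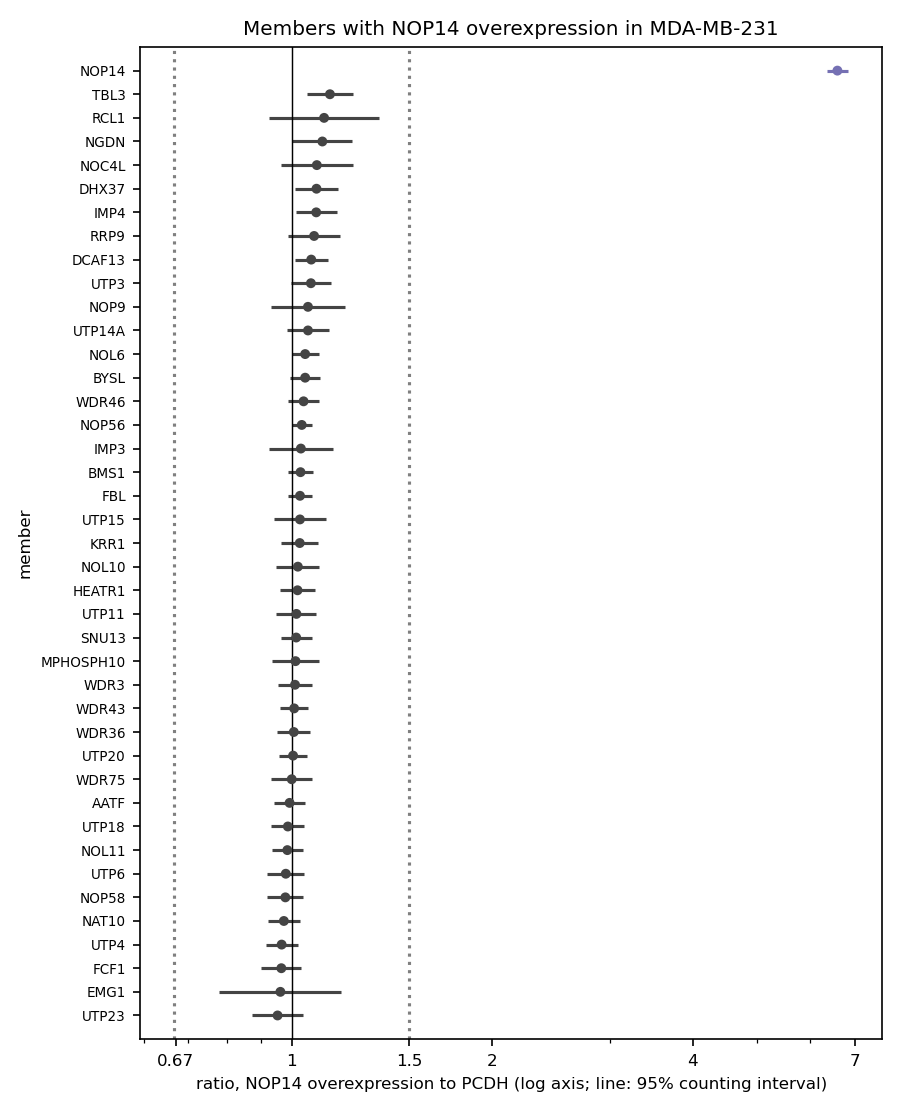
Ratio of the level with NOP14 overexpression to that with PCDH in MDA-MB-231 (log axis) for 41 members, with 95% counting intervals, 1 library an arm. NOP14 lies at 6.59 and the other 40 members between 0.953 and 1.14, inside the dotted lines at a ratio of 1.5 either way.

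With ADAR siRNA, NOP14 stood below its control in 6 of 8 libraries. Its library 2 lay below library 1 in each line except MDA-MB-231, a difference that was not called (edgeR adjusted p = 0.472). It was at 79.2% and 92.0% of the control in libraries 1 and 2 of MDA-MB-231, 106% and 67.3% in BT-549, 97.2% and 80.0% in AGS, and 116% and 64.1% in NCI-H1395. Over the 4 lines, with the 2 libraries of a line summed, its log2 fold change was -0.16 ± 0.10 (standard error, 4 lines; edgeR's quasi-likelihood test, Benjamini-Hochberg adjusted p = 0.592). The change did not pass the test. In bulk RNA, fewer cells with a transcript and less of it per cell cannot be told apart.

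The partners did not pass it either. NOC4L was at 59.4% and 78.1% of its control in MDA-MB-231, 112% and 87.9% in BT-549, 42.4% and 76.2% in AGS, and 122% and 105% in NCI-H1395, lower in 5 of 8 libraries (log2 fold change -0.25 ± 0.16, edgeR adjusted p = 0.600). EMG1 was at 110% and 123% in MDA-MB-231, 88.9% and 63.0% in BT-549, 92.9% and 68.0% in AGS, and 102% and 83.6% in NCI-H1395 (-0.14 ± 0.18, edgeR adjusted p = 0.830). UTP14A was the lowest of the group, at 56.2% and 69.3% in MDA-MB-231, 108% and 74.3% in BT-549, 101% and 63.6% in AGS, and 90.6% and 69.4% in NCI-H1395 (-0.33 ± 0.12, edgeR adjusted p = 0.284). The median of the 4 log2 fold changes was -0.21, beside -0.15 for the other 38 members. The group therefore lay within the range of the rest, -0.40 (NAT10) to 0.11 (DHX37).

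**Figure D4:**
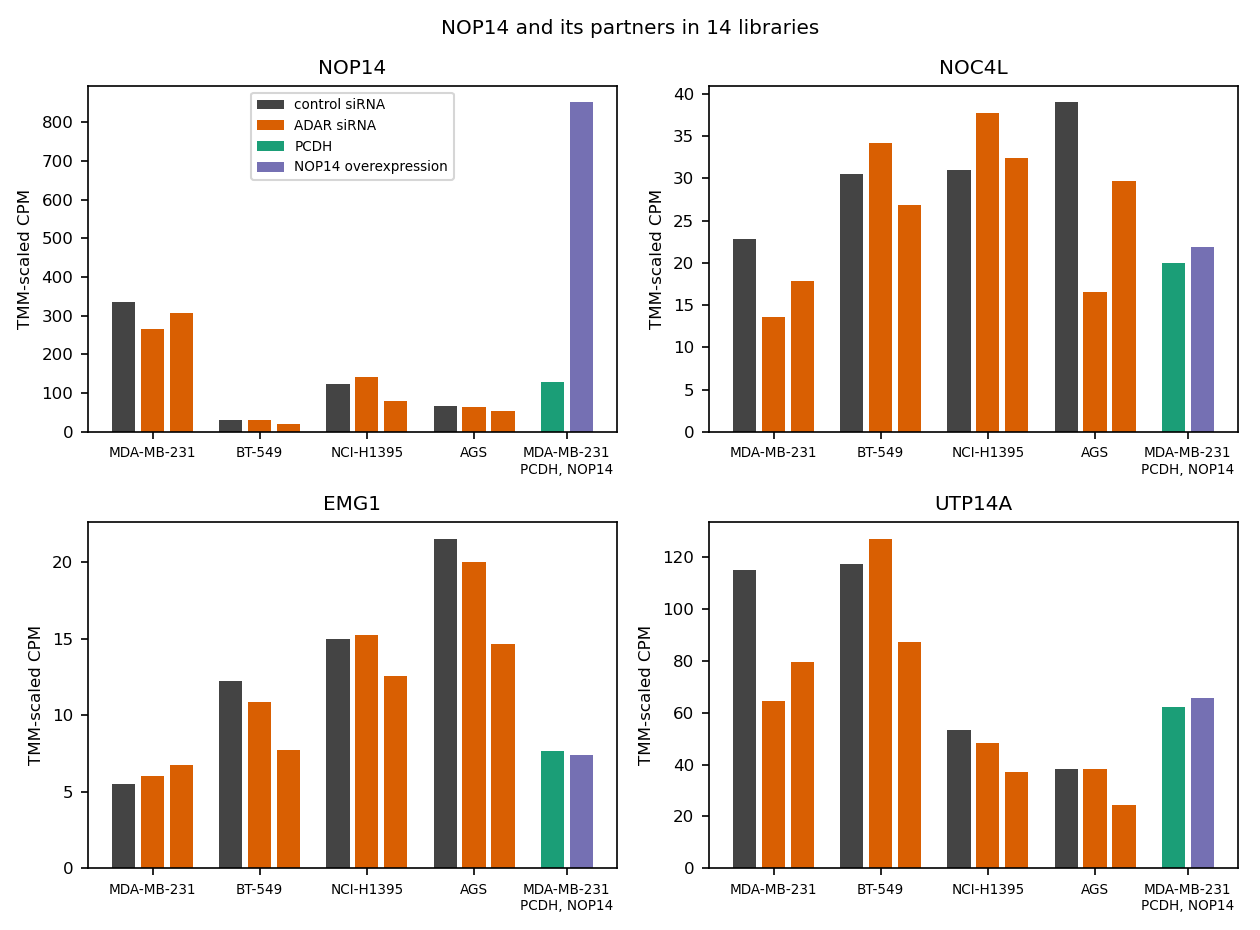
TMM-scaled CPM of NOP14, NOC4L, EMG1 and UTP14A in the 14 libraries, each bar 1 library, with libraries 1 and 2 of ADAR siRNA in that order. NOP14 stands at separate levels by line and reaches 852 CPM with overexpression, while its partners stay near PCDH there.

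Over the 4 lines, 35 of the 42 members had a lower level with ADAR siRNA and 7 a higher one, with a median log2 fold change of -0.16. Of all 21944 genes tested 42.7% were lower (median 0.060), and of the 6660 better expressed genes, those whose log2 CPM averaged 5 or more, 57.2% (median -0.035). By edgeR, 0 of 42 members were called (adjusted p under 0.05), against a background of 0.0182% of genes. At an unadjusted p under 0.05, edgeR gave 13 of 42 members, against 11.5% of all genes and 1249 of the 6660 better expressed genes. DESeq2 called 8 of 42 members, all lower, against 3.08% of genes: UTP18, NOP56, IMP4, NAT10, WDR3, UTP11, NOL11 and NOP58. Whether a member is called thus depended on the test used. The 10 proliferation genes listed beside them (MKI67 and others of the cell cycle) were all lower over the 4 lines, with a median of -0.50, and their part in the members' values was not tested.

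UTP-B, which binds the precursor after UTP-A, was lower in 6 of 6 members (median -0.32). That count and median include PWP2 without its copy, at -0.37 ± 0.27. Summed with the copy, PWP2 had -0.22 ± 0.14. UTP18, which links the particle to the RNA exosome, was at 72.4% and 86.8% of its control in MDA-MB-231, 86.2% and 80.2% in BT-549, 76.5% and 76.5% in AGS, and 79.8% and 70.3% in NCI-H1395. It was thus lower in all 8 libraries (-0.33 ± 0.11, edgeR adjusted p = 0.253). WDR3 ranged more widely, at 77.6% and 89.5% in MDA-MB-231, 112% and 58.9% in BT-549, 122% and 40.1% in AGS, and 86.1% and 47.1% in NCI-H1395 (-0.32 ± 0.11, edgeR adjusted p = 0.268). WDR3 was above its control in library 1 of BT-549 and AGS and had the lowest values of the lines NCI-H1395 and AGS in library 2. TBL3, another WD-repeat protein, had -0.23 ± 0.12 and WDR36 -0.38 ± 0.13.

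The U3 snoRNP, the RNA-protein particle that guides the early cuts, was lower in 5 of 5 members (median -0.25). NOP56, a core scaffold of box C/D snoRNPs, was at 63.8% and 79.6% in MDA-MB-231, 98.8% and 66.3% in BT-549, 99.0% and 76.0% in AGS, and 86.8% and 68.1% in NCI-H1395 (-0.31 ± 0.10, edgeR adjusted p = 0.265). NOP56 was lower in all 8 libraries, though by little in library 1 of BT-549 and AGS. SNU13, which binds the kink-turn of these RNAs, had -0.25 ± 0.11 (edgeR adjusted p = 0.380), FBL -0.27 ± 0.12, NOP58 -0.20 ± 0.10 and RRP9, the U3-specific protein, -0.086 ± 0.13.

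UTP-A, the first complex on the precursor, was lower in 4 of 6 members (median -0.13). NOL11 was at 68.9% and 85.3% in MDA-MB-231, 105% and 80.9% in BT-549, 97.9% and 65.3% in AGS, and 74.3% and 64.3% in NCI-H1395 (-0.31 ± 0.11, edgeR adjusted p = 0.292). UTP4 had -0.18 ± 0.11 (edgeR adjusted p = 0.567). HEATR1, the largest UTP-A protein, had 0.0097 ± 0.11, and 23.1% of its exon bases overlap LGALS8.

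In the MPP10 complex, which helps U3 pair with the precursor, 2 of 3 members were lower and they diverged. IMP4 was at 60.4% and 85.9% in MDA-MB-231, 116% and 62.0% in BT-549, 76.8% and 66.6% in AGS, and 86.3% and 53.1% in NCI-H1395 (-0.38 ± 0.11, edgeR adjusted p = 0.205). MPHOSPH10, the human MPP10, had 0.089 ± 0.15 (edgeR adjusted p = 0.878) and was at 199% and 115% of its control in AGS. The value of 199% in library 1 of AGS was the highest of any member in any library. BMS1 had 0.012 ± 0.10 and its partner RCL1 -0.15 ± 0.14 (edgeR adjusted p = 0.984 and 0.734).

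Of the 16 single factors 13 were lower (median -0.11). NAT10, which acetylates cytidines of the 18S rRNA, had the smallest p of all members by edgeR, while by DESeq2 UTP18 did. NAT10 was at 73.5% and 78.0% in MDA-MB-231, 115% and 61.6% in BT-549, 79.5% and 54.7% in AGS, and 87.1% and 52.9% in NCI-H1395 (-0.40 ± 0.11, edgeR adjusted p = 0.193). UTP11 was at 62.8% and 84.5% in MDA-MB-231, 87.3% and 81.7% in BT-549, 90.8% and 73.1% in AGS, and 82.2% and 97.1% in NCI-H1395 (-0.27 ± 0.11, edgeR adjusted p = 0.368). NGDN was the other single factor below its control in all 8 libraries, at 64.3% to 96.0%. With UTP18 and NOP56 these made 4 of 42 members (9.52%), against 3.36% of all genes and 7.25% of the better expressed genes. In the other direction 0 members were higher in all 8, against 2.22% of all genes. DHX37, the helicase, was at 146% of its control in library 1 of NCI-H1395 and at 81.9% in library 1 of MDA-MB-231.

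**Figure D5:**
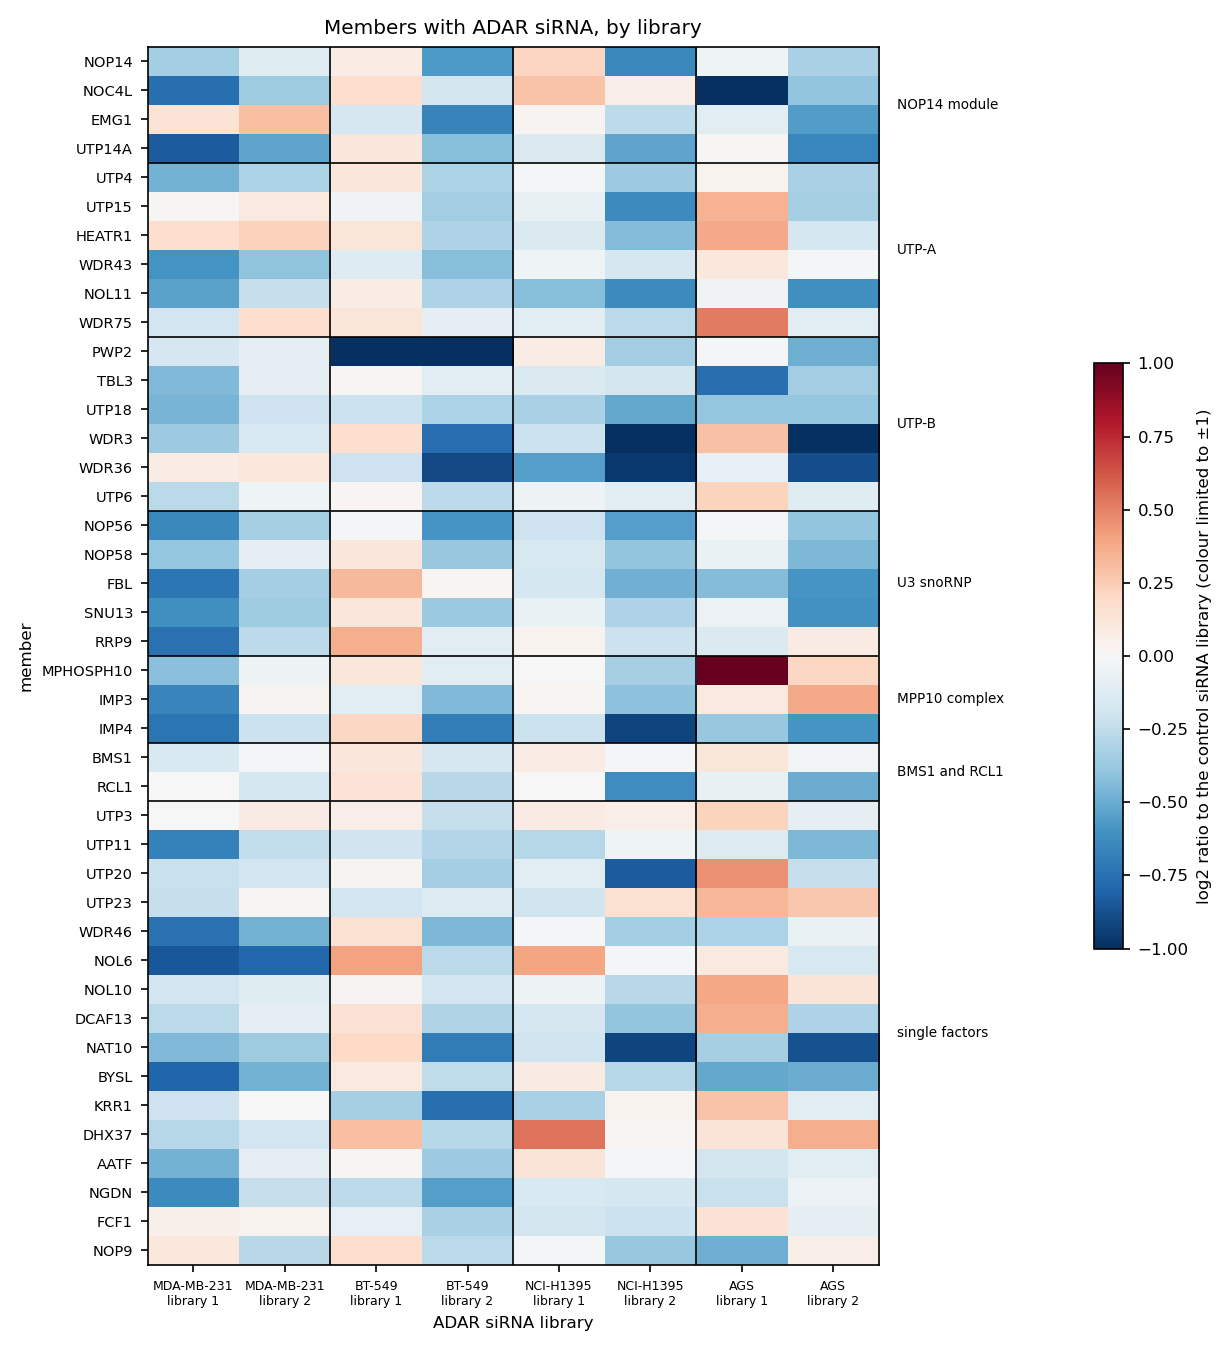
Log2 ratio of each ADAR siRNA library to the control siRNA library of its line for the 42 members, grouped by role, with blue for lower, red for higher and the colour limited to 1 either way. In BT-549, NCI-H1395 and AGS the columns of library 2 are bluer than those of library 1, and in MDA-MB-231 the reverse holds.

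Within single lines no member was called. By edgeR 0 of 42 members were called in MDA-MB-231, against 0.0751% of 23959 genes, and 0 of 42 in each of BT-549, NCI-H1395 and AGS, against 0.00417% in each. DESeq2 also called 0 of 42 in each line, against 0.188%, 0.0125%, 0.196% and 0.0584% of genes in MDA-MB-231, BT-549, NCI-H1395 and AGS. At an unadjusted p under 0.05, edgeR gave 3 members in MDA-MB-231 (NOL6, BYSL and UTP14A) and 1 in each other line, against 4.85% of all genes in MDA-MB-231, 3.1% in BT-549, 4.98% in AGS and 5.3% in NCI-H1395. The single members were PWP2 in BT-549, WDR36 in NCI-H1395 and NOC4L in AGS, named after their values were seen. DESeq2 gave 1, 1, 0 and 0 members at that level in MDA-MB-231, BT-549, NCI-H1395 and AGS, against 3.5%, 1.7%, 3.62% and 3.16% of genes. NOL6, a structural factor of the particle, was at 55.5% and 58.1% of its control in MDA-MB-231 (-0.82 ± 0.29) but at 132% and 83.0% in BT-549 and at 132% and 98.5% in NCI-H1395. PWP2 in BT-549 rested on 17 counts in the control and 1 and 6 with ADAR siRNA. Its log2 fold change of -2.25 ± 0.70 became -0.36 ± 0.34 when the copy was summed with it. The test of a difference between lines called 0 of 42 members (edgeR), against 0.0292% of genes, and gave 0 at an unadjusted p under 0.05, against 3.37%. DESeq2 was not run for that test.

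The members lower within a line numbered 36 of 42 in both MDA-MB-231 and NCI-H1395 (median log2 fold change -0.25 and -0.17), 35 in BT-549 (-0.12) and 26 in AGS (-0.16). The share of members lower was 85.7% in MDA-MB-231, against 44.6% of all genes and 63.7% of the better expressed genes. It was 83.3% in BT-549, against 42.7% and 55.1%, and 85.7% in NCI-H1395, against 43.2% and 58%. In AGS it was 61.9%, against 40.6% and 55%, so close to that of the better expressed genes. In BT-549 the count rested on library 2: without it 13 members were lower, with a median of 0.092, and without library 1, 41 were lower, with a median of -0.32. In AGS 22 members were lower without library 2 (median -0.014) and 35 without library 1 (-0.32). For NCI-H1395 these were 29 (-0.078) and 38 (-0.36), and for MDA-MB-231 36 (-0.40) and 32 (-0.16).

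The number of the ADAR siRNA library went with the level of the members in 3 of the 4 lines. Library 2 lay below library 1 for 40 of 42 members in BT-549, 31 in AGS and 39 in NCI-H1395, but for 3 of 42 in MDA-MB-231. Of all genes tested 53.1%, 50.3%, 45.6% and 46.8% did so in these 4 lines, in that order, and of the better expressed genes 58.2%, 52%, 55.8% and 23.4%. In MDA-MB-231 the better expressed genes thus also mostly lay higher in library 2. The members' median log2 ratio to the control was 0.087 in library 1 and -0.32 in library 2 of BT-549, -0.016 and -0.32 in AGS, -0.071 and -0.34 in NCI-H1395, and -0.40 and -0.17 in MDA-MB-231. NOP14 was among 25 members (59.5%) lower than the control in all 4 libraries numbered 2, as were 11% of all genes and 21.3% of the better expressed genes. In all 4 libraries numbered 1, 4 members (9.52%) were lower, as were 9.37% of all genes and 15.2% of the better expressed genes.

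Between library 2 and library 1 over the 4 lines, 36 of 42 members were lower in library 2, with a median log2 difference of -0.19 beside 0.037 for all genes. By edgeR, 0 of 42 members were called, against 0.0293% of 20470 genes, and 9 had an unadjusted p under 0.05, against 8.72% of genes. DESeq2 called 0 of 42, against 0.313%, with 9 at that level, against 7.65%. WDR3 had the largest difference, -0.81 ± 0.22 (edgeR adjusted p = 0.228). It was called when MDA-MB-231 was left out (-1.15 ± 0.19, edgeR adjusted p = 0.026). NAT10 followed with -0.53 ± 0.16, WDR36 with -0.48 ± 0.16, UTP20 with -0.44 ± 0.16, RCL1 with -0.42 ± 0.17 and NOP14 with -0.40 ± 0.17 (edgeR adjusted p = 0.241, 0.284, 0.341, 0.463 and 0.472). What the library numbers stand for, such as repeats or separate siRNAs, is not stated in the labels. The proliferation genes had medians of -0.11 and -0.37 in libraries 1 and 2 of BT-549, -0.40 and -0.84 in AGS, -0.78 and -0.96 in NCI-H1395, and -0.48 and -0.38 in MDA-MB-231, and their part in the difference was not tested.

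Other genes of the pathway were read beside the members. For scale, 42.7% of all genes tested and 57.2% of the better expressed genes were lower over the 4 lines. By edgeR 0.0182% of all genes were called. An unadjusted p under 0.05 was found for 11.5% of all genes and 1249 of the 6660 better expressed genes. Of 18 further processome proteins, 12 were lower over the 4 lines (median -0.13), with 0 called by edgeR and 1 at an unadjusted p under 0.05. Their smallest p belonged to LYAR (-0.41 ± 0.12, edgeR adjusted p = 0.226) and RPS19BP1 (-0.25 ± 0.12, 0.456). Of 15 factors of the later pre-40S particle, 10 were lower (median -0.11), led by PNO1 (-0.24 ± 0.13) and TSR1 (-0.19 ± 0.11), with 0 called and 0 at that level. Of 9 assembly factors of box C/D snoRNPs, 6 were lower (median -0.16), with 0 called and 1 at that level. RUVBL2, an ATPase of that assembly, had -0.39 ± 0.11 (edgeR adjusted p = 0.200) and its partner RUVBL1 -0.21 ± 0.11. Of 14 genes of the RNA exosome, which trims the spacer fragments, 12 were lower (median -0.20), with 0 called and 2 at that level. EXOSC2 had -0.38 ± 0.15 and C1D -0.39 ± 0.19 (edgeR adjusted p = 0.345 and 0.435). With NOP14 overexpression the median log2 ratios of these 4 lists were 0.065, 0.031, 0.066 and 0.050, beside 0.041 for the members, and 0 of their genes passed a ratio of 1.5. Of all genes 5.79% passed that ratio, and of the 6411 better expressed genes 1 did.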

How the data were processed

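Beads captured poly(A) RNA and random hexamers primed the cDNA, per the labels' protocols. The tools were fastp 0.23.4, STAR 2.7.11a and, for counting, featureCounts 2.0.6, with hg38 as the build, per the submitters' processing notes. Neither the strand setting nor the handling of reads that map to several places is given in the sources used here. The values deposited by the authors are integer counts per gene. 3 broken lines of 1 gene (ANK2) of 62702 were not used, and all 14 count columns matched a sample.

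Samples were grouped from the labels. Gene-wise tests used edgeR 4.0.16 under R 4.3.3 (TMM scaling, filterByExpr, robust quasi-likelihood fits, Benjamini-Hochberg adjustment at 0.05). The fit over the 4 lines summed libraries 1 and 2 of each line (3 residual degrees of freedom). Within lines 8 groups shared 1 spread (4 residual degrees of freedom), with the spread of the lone control taken from the ADAR siRNA pairs. For library 2 against library 1 the fit held line and number (3 residual degrees of freedom). Values after ± are standard errors on the log2 scale. For NOP14 overexpression, TMM-scaled CPM ratios with a prior count of 2 are given for genes of at least 20 counts, with exact binomial 95% intervals that cover counting error only. TPM used the deposited gene lengths. Sequences come from RefSeq (GRCh38.p14) promoters and GENCODE 29 transcripts, compared with Python 3.11.15.

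The rule named NOP14, NOC4L, EMG1 and UTP14A, in each other subcomplex the 2 members of smallest p over the 4 lines and the one farthest from its control with NOP14 overexpression, members past a threshold (up to 5 a test), and 2 genes of each pathway list. The members, lists and rule were chosen with earlier results of these data known. Alternatives were median-ratio scaling, library totals, no count filter, DESeq2 1.42.0, unsummed libraries, libraries of 1 number, leaving out lines or libraries, other prior counts, and PWP2 summed with its copy. The edgeR tests were tested on simulated data.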

Additional observations from a re-analysis of the deposited data

How the results depend on the processing

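Over the 4 lines, DESeq2 called 8 members where edgeR called 0. The members' median stayed below 0 under each alternative run there, from -0.28 with ADAR siRNA libraries 2 only to -0.10 with library totals, and between 30 and 41 members were lower. Of 504 values of single members under those alternatives, 35 changed sign, and none of these 35 was called. For library 2 against library 1, leaving out MDA-MB-231 gave 1 call in place of 0. Within BT-549, leaving out a library gave 13 to 41 lower members, and a median from -0.32 without library 1 to 0.092 without library 2. A term for the library number (replicate block) changed no call within a line and gave medians of -0.22, -0.13, -0.18 and -0.16 in MDA-MB-231, BT-549, NCI-H1395 and AGS. Between controls it gave 35 called members in place of 32. Over genes, the differences between numbers correlated from 0.146 to 0.378 among BT-549, NCI-H1395 and AGS and from -0.059 to 0.063 between these and MDA-MB-231, so the numbers were not taken to pair the samples of all 4 lines. Library totals moved the median within MDA-MB-231 from -0.25 to -0.14, within NCI-H1395 from -0.17 to -0.080 and within AGS from -0.16 to -0.073. One control a line, 2 ADAR siRNA libraries and 1 library an arm for NOP14 limit what these counts can show.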

Other observations

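The 2 control libraries of MDA-MB-231 belong to different experiments and were set side by side with no test. NOP14 was at 335 CPM with control siRNA and 129 CPM with PCDH, a ratio of 2.60, the largest of the 42 members. UTP14A had a ratio of 1.85, NOC4L of 1.14 and EMG1 of 0.718. The 40 members other than NOP14 and PWP2 ran from 0.353 (NOP9) to 2.35 (NGDN), with a median of 1.16. These ratios between controls spanned a wider range than those of the same 40 members with NOP14 overexpression, 0.953 to 1.14.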
